A study of Mus musculus with 12 samples.

Results

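The 10 chemokine genes described here were Ccl2, Ccl3, Ccl5, Ccl7, Ccl8, Ccl11, Cxcl1, Cxcl5, Cxcl10 and Cxcl12, a set of secreted attractants often counted among the factors that senescent cells release. They were taken by name, each had 1 probe set, and they are 10 of the 16475 probe sets of the table that are not hybridization controls. RNA was measured on 12 Affymetrix Mm430_2.0 arrays, 3 in each of 4 groups. The inducible groups were 3T3-ind-IER2 #11 cells (Klon11 in the labels), a single NIH 3T3 clone. NIH 3T3 is a line of mouse embryonic fibroblasts, and the clone holds a mouse Ier2 transgene that the RheoSwitch ligand RSL-1, called RSL here, is meant to switch on. They received 200 nM RSL or the solvent DMSO for 24 h. The parental groups were NIH 3T3 cells, whose titles name no RheoSwitch construct, given RSL or DMSO in the same way. The labels give 1 growth protocol for both lines, with 10% foetal bovine serum, G418 and hygromycin. The paper selected transfected cells with these drugs, and whether the parental cells hold any plasmid is not stated. Because the inducible line is 1 clone, a difference between the lines cannot be told apart into the choice of that clone and the construct it holds. In RNA from whole cultures, fewer cells that make a transcript and less transcript per cell cannot be told apart either.

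Chemokines are small secreted proteins that bind G protein-coupled receptors on leukocytes and direct their migration along a gradient. In fibroblasts most of their genes are silent or weakly transcribed until a cytokine receptor or a Toll-like receptor engages NF-kB, AP-1 and C/EBP factors, and many of the transcripts are short-lived. Among the members, Ccl2, Ccl7 and Ccl8 belong to the monocyte chemotactic proteins, encoded in a cluster together with Ccl11, an attractant of eosinophils. Cxcl1 and Cxcl5 attract neutrophils through Cxcr2. Cxcl10 is induced by interferons and attracts activated T cells through Cxcr3, Cxcl12 is the homeostatic ligand of Cxcr4, and Ccl3 and Ccl5 attract T cells and macrophages.

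The values were log2 intensities after background correction and quantile normalization. Arrays of the same group correlated at 0.998 to 0.999 over all probe sets, DMSO and RSL arrays within a line at the same values, and arrays of different lines at 0.991 to 0.993, and no array stood apart. All 10 fibroblast markers of a list of genes that define this cell type lay above the first quartile of every array, with a mean level between 10.7 and 11.0. The mean level of 10 macrophage markers was 6.57 to 6.58 in inducible DMSO, 6.57 to 6.63 in inducible RSL, 6.56 to 6.57 in parental DMSO and 6.58 to 6.61 in parental RSL arrays. Of these 10, the pan-leukocyte gene Ptprc and the macrophage genes Itgam and Aif1, 3 in all, lay below the first quartile on all 12 arrays. Cd14, at 8.65 to 9.04, and Csf1r, at 7.23 to 7.58, lay above it on every array, as did Cd68, Fcgr1 and Mrc1. Adgre1 was below it on 6 arrays and Lyz2 on 9. Of the endothelial markers 5 of 6, and of the epithelial markers 3 of 7, were below it on all arrays. No marker of these 4 lists was called for RSL by limma in either line. At an unadjusted p under 0.05, 6 and 7 of the 33 passed in inducible and parental cells. Of all 16475 probe sets, 2031 and 1599 did. Between the lines under DMSO, 15.2% of all probe sets were called higher in the inducible cells and 14.5% lower. Of the fibroblast markers, 6 were higher and 3 lower in the inducible cells. Of the macrophage markers 1 was higher and 2 were lower there, of the epithelial ones 2 were higher and 0 lower, and of the endothelial ones 0 were higher and 1 lower. The Ier2 probe set went against the labels: it read 8.50, 8.48 and 8.66 on the inducible arrays labelled RSL and 9.07, 9.04 and 8.96 on those labelled DMSO. It read 8.60, 8.61 and 8.53 in parental cells labelled DMSO and 8.82, 8.74 and 8.67 in those labelled RSL. It is unknown whether this probe set reads the transgene, and the values do not settle whether the RSL and DMSO labels of the inducible arrays are the right way round. Every RSL direction below is that of the arrays as labelled. If those labels were exchanged, the sign of each RSL effect in inducible cells would turn. The difference of the RSL effects would then change in size, and its sign could turn. For Ccl8 it would turn, since the RSL effect in parental cells was 0.01. The comparisons of the lines would also change, and so could the calls of both.

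The promoters of 3 members are shown, Ccl8 and Cxcl1 because they were the members that rose with RSL in inducible cells, and Cxcl10 because it was not called there. RefSeq promoter sequences of build GRCm38.p6 matched 5 of the 10 members (Ccl3, Ccl8, Cxcl1, Cxcl10 and Cxcl12). Each sequence below is the 250 bases before the annotated start of transcription, written 5′ to 3′ along the strand of the gene. Capitals mark matches, on either strand, to the NF-kB-type motif GGANNTTCC, the AP-1 motif TGANTCA, the C/EBP-type motif TTNNGNAA and the TATA motif TATAAA, where N is any base.
Ccl8 (chr11:82114935-82115184, plus strand): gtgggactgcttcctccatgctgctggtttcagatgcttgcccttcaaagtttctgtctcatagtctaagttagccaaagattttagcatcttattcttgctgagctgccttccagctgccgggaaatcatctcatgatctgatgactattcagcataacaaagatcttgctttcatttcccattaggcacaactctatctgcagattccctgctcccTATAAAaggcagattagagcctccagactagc
Cxcl1 (chr5:90890995-90891244, plus strand): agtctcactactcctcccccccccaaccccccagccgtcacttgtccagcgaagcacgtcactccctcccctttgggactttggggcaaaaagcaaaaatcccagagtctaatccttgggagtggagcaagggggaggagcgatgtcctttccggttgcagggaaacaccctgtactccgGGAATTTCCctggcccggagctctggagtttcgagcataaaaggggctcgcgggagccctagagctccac
Cxcl10 (chr5:92348890-92349139, minus strand): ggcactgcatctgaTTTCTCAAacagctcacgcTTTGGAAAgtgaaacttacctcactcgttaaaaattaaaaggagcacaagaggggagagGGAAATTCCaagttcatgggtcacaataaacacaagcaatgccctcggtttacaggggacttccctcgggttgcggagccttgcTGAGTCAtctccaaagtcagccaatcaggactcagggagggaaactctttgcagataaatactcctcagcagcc
In Ccl8 the capitals are a TATA match that begins 32 bases before the start, and in Cxcl1 an NF-kB-type match that begins 70 bases before it and reads as a match on both strands. The Cxcl10 window held an NF-kB-type match from 158 bases before the start, an AP-1 match from 74 bases and 2 C/EBP-type matches, from 236 and 217 bases. These matches did not overlap. Ccl3 held 1 C/EBP-type match. Among all 32851 promoter windows of this length, 3.59% held the NF-kB-type motif, 6.75% the AP-1 motif, 36.8% the C/EBP-type motif and 12.4% the TATA motif. A match describes letters in the window and does not show binding.

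The members first differed in how far they stood above the floor of the arrays. A gene was taken to read near the floor in a group when its value was below the first quartile of the same array on all 3 arrays. That quartile lay between 6.23 and 6.30. Ccl3 and Ccl11 met this in all 4 groups. Ccl3 read 6.07 to 6.26 and Ccl11 5.95 to 6.22 over the 12 arrays, with percentiles on the array of 16.2 to 23.6 and of 10.6 to 23.9. Cxcl12, at 6.30 to 6.44 and percentiles of 26.5 to 31.5, was just above the line on every array. Ccl5, at 6.42 to 6.71 and percentiles of 31.3 to 42.1, was the next. Cxcl12 was also below the upper quartile of 24 genes listed as silent in fibroblasts on all 12 arrays, and Ccl5 on 6 of them. Not all of that list was dim here: 9 of the 24 were below the first quartile on all arrays, and the highest read 7.79 to 8.42. Ccl5 in inducible DMSO cells was not near the floor by any of 3 rules tried. The differences of these 4 genes between any pair of groups lay between -0.10 and 0.14. The other 6 read above the first quartile on every array. The lowest of these were Ccl8 in parental cells, at percentiles of 37.1 to 43.0, and Cxcl10, at 44.4 to 53.1 over all arrays. Ccl2, at percentiles of 98.1 to 98.9, was among the brightest probe sets of every array.

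**Figure D1:**
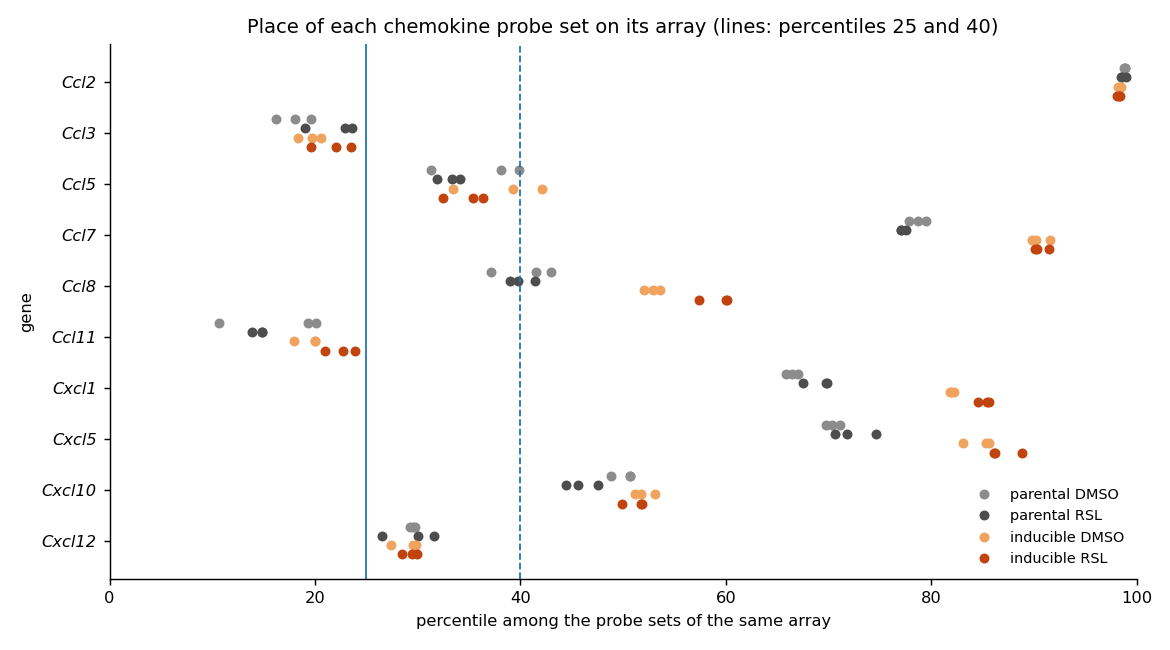
Place of each chemokine probe set on its own array, as a percentile among all probe sets of that array, with 1 point per array and colours for the 4 groups. The lines mark percentiles 25 and 40. All 12 points of Ccl3 and of Ccl11 lie left of the solid line, and those of Cxcl12 lie between the lines.

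To ask which chemokines changed when the inducible cells received RSL, the 3 inducible arrays labelled RSL were compared with the 3 labelled DMSO. Ccl8 and Cxcl1 rose, and the other 8 members did not pass the test. The share of all probe sets called in this comparison, at an adjusted p under 0.05 in limma's test and in either direction, was 2.54%, against 2 of 10 members. The members were chosen with earlier results of these data known. Shares of members here and below are therefore descriptions and not tests. The median log2 difference of the members was 0.03, beside 0.00 for all probe sets. The members lay between -0.10 and 0.33, with 7 above 0.

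Ccl8, the monocyte chemotactic protein gene whose promoter is printed above, read 7.24, 7.20 and 7.16 in inducible cells under DMSO and 7.44, 7.58 and 7.57 under RSL. The lowest RSL array was above the highest DMSO array. The difference was 0.33 on the log2 scale (standard error 0.05, n = 3 and 3, 1.26-fold, limma adjusted p = 0.00151).

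Cxcl1, the neutrophil attractant, read 8.92, 8.92 and 8.88 under DMSO and 9.12, 9.22 and 9.17 under RSL. These groups did not overlap either. It rose by 0.26 (standard error 0.04, 1.20-fold, limma adjusted p = 0.00213).

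Cxcl5, which shares the receptor Cxcr2 with Cxcl1, read 9.20, 9.21 and 8.98 under DMSO and 9.27, 9.54 and 9.25 under RSL. All 3 RSL arrays were above the DMSO arrays, and replicate 2 was the highest. The difference was 0.23 with a 95% interval of 0.06 to 0.39, and did not pass (standard error 0.08, limma adjusted p = 0.182). Without RSL replicate 2 it was 0.13.

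The other monocyte chemotactic proteins had no such shift. Ccl2 read 11.28, 11.32 and 11.38 under DMSO and 11.25, 11.39 and 11.28 under RSL, a difference of -0.02 with a 95% interval of -0.13 to 0.09. Ccl7 read 9.71, 9.64 and 9.85 under DMSO and 9.71, 9.85 and 9.67 under RSL, a difference of 0.01 with an interval of -0.10 to 0.12. In both genes the groups overlapped.

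Cxcl10, the interferon-induced member, read 7.13, 7.10 and 7.22 under DMSO and 7.14, 7.14 and 7.05 under RSL, a difference of -0.04 with an interval of -0.13 to 0.05. The 4 dim members gave differences of 0.05 for Ccl3, -0.10 for Ccl5, 0.07 for Ccl11 and 0.02 for Cxcl12, with adjusted p between 0.522 and 0.958 in limma. Ccl11 was one of the 4 members, with Ccl8, Cxcl1 and Cxcl5, whose arrays did not overlap. All 4 were higher under RSL. Of all probe sets, 18.1% had groups that did not overlap in this comparison, against 4 of 10 members. For a single gene, an exact two-sided permutation test of 3 against 3 arrays cannot go below a p of 0.1, which these 4 reached.

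**Figure D2:**
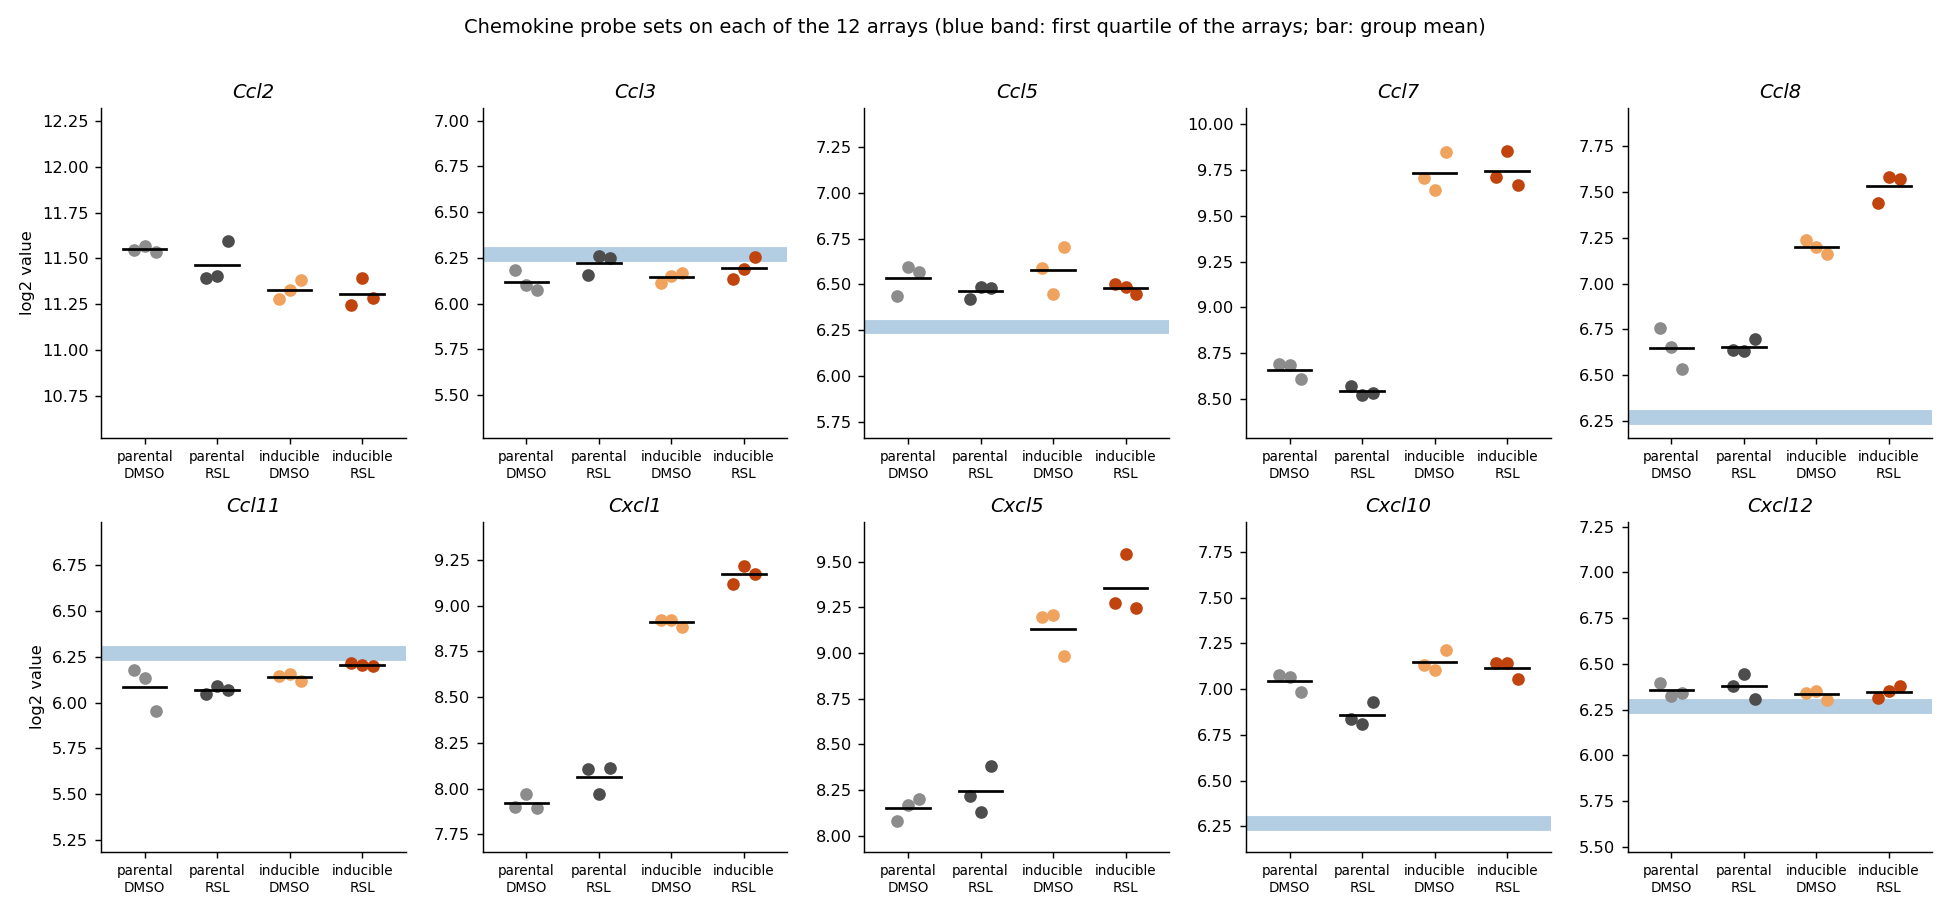
Log2 value of each chemokine probe set on each of the 12 arrays, in 4 groups of 3 arrays. Points are arrays, black bars are group means, every panel spans the same height, and the blue band covers the first quartiles of the arrays. Ccl8 and Cxcl1 step up from inducible DMSO to inducible RSL, while Ccl7, Cxcl1 and Cxcl5 differ most between the lines.

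RSL was also tested in the parental cells, whose sample titles name no RheoSwitch construct. None of the 10 members passed there, and 0.0303% of all probe sets did (5 of 16475). At an unadjusted p under 0.05 in limma, 2 members were higher (Cxcl1 and Ccl3) and 2 lower (Cxcl10 and Ccl7), as were 1599 of all probe sets in either direction. The median of the members was -0.01, beside 0.01 for all probe sets.

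Cxcl10 gave the smallest p of the members. It read 7.08, 7.06 and 6.98 in parental cells under DMSO and 6.84, 6.81 and 6.93 under RSL, so each RSL array was below each DMSO array. The difference was -0.18 with a 95% interval of -0.28 to -0.09 (standard error 0.04, limma adjusted p = 0.231). Ccl7 read 8.69, 8.68 and 8.61 under DMSO and 8.57, 8.52 and 8.53 under RSL, a difference of -0.12 (standard error 0.05, limma adjusted p = 0.488). These were the 2 members whose parental groups did not overlap, against 13.3% of all probe sets.

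Ccl8 read 6.76, 6.65 and 6.53 in parental cells under DMSO and 6.64, 6.63 and 6.70 under RSL. The difference was 0.01 with an interval of -0.10 to 0.11. Cxcl1 read 7.90, 7.97 and 7.89 under DMSO and 8.11, 7.97 and 8.11 under RSL. With RSL replicate 2 inside the DMSO range, its difference was 0.14 with an interval of 0.05 to 0.23 (standard error 0.04, limma adjusted p = 0.366).

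Cxcl5 read 8.08, 8.17 and 8.20 under DMSO and 8.22, 8.13 and 8.38 under RSL, a difference of 0.09 (standard error 0.08). Ccl2 read 11.55, 11.57 and 11.53 under DMSO and 11.39, 11.40 and 11.59 under RSL, a difference of -0.09 (standard error 0.05). Neither group pair was separated. Of the dim members, Ccl3 differed by 0.10 (standard error 0.04, limma adjusted p = 0.452), Ccl5 by -0.07, Ccl11 by -0.02 and Cxcl12 by 0.02.

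The difference of the RSL effects, inducible minus parental, asks whether RSL moved a chemokine more in the inducible clone than in parental cells. Ccl8 was the 1 member called, against 0.662% of all probe sets. Its effect was 0.33 larger in inducible cells, with a 95% interval of 0.17 to 0.48 (standard error 0.07, limma adjusted p = 0.0485). This call lay at the threshold: leaving out any of 10 of the 12 arrays ended it, with adjusted p between 0.0646 and 0.148. Over all 12 the difference itself stayed between 0.27 and 0.38. It held without inducible RSL replicate 1 or without parental DMSO replicate 3. Ccl8 read low in parental cells, at percentiles of 37.1 to 43.0 on the array. How far signal over background limits its parental effect was not tested.

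For Cxcl1 the difference of the effects was 0.12 with an interval of -0.0029 to 0.25 (standard error 0.06, limma adjusted p = 0.566). With the arrays as labelled, the rise of Cxcl1 in inducible cells was therefore not separated by this test from its value of 0.14 in parental cells. Cxcl10 gave 0.15 with an interval of 0.02 to 0.28 (limma adjusted p = 0.450), Ccl7 0.13 with an interval of -0.03 to 0.28 and Cxcl5 0.13 with an interval of -0.10 to 0.36. The other 5 lay between -0.05 and 0.08. The median of the members was 0.10, beside 0.00 for all probe sets. At an unadjusted p under 0.05, 2 members (Ccl8 and Cxcl10) were above 0 and 0 below. Of all 16475 probe sets, 1494 reached it, 724 of them above 0.

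**Figure D3:**
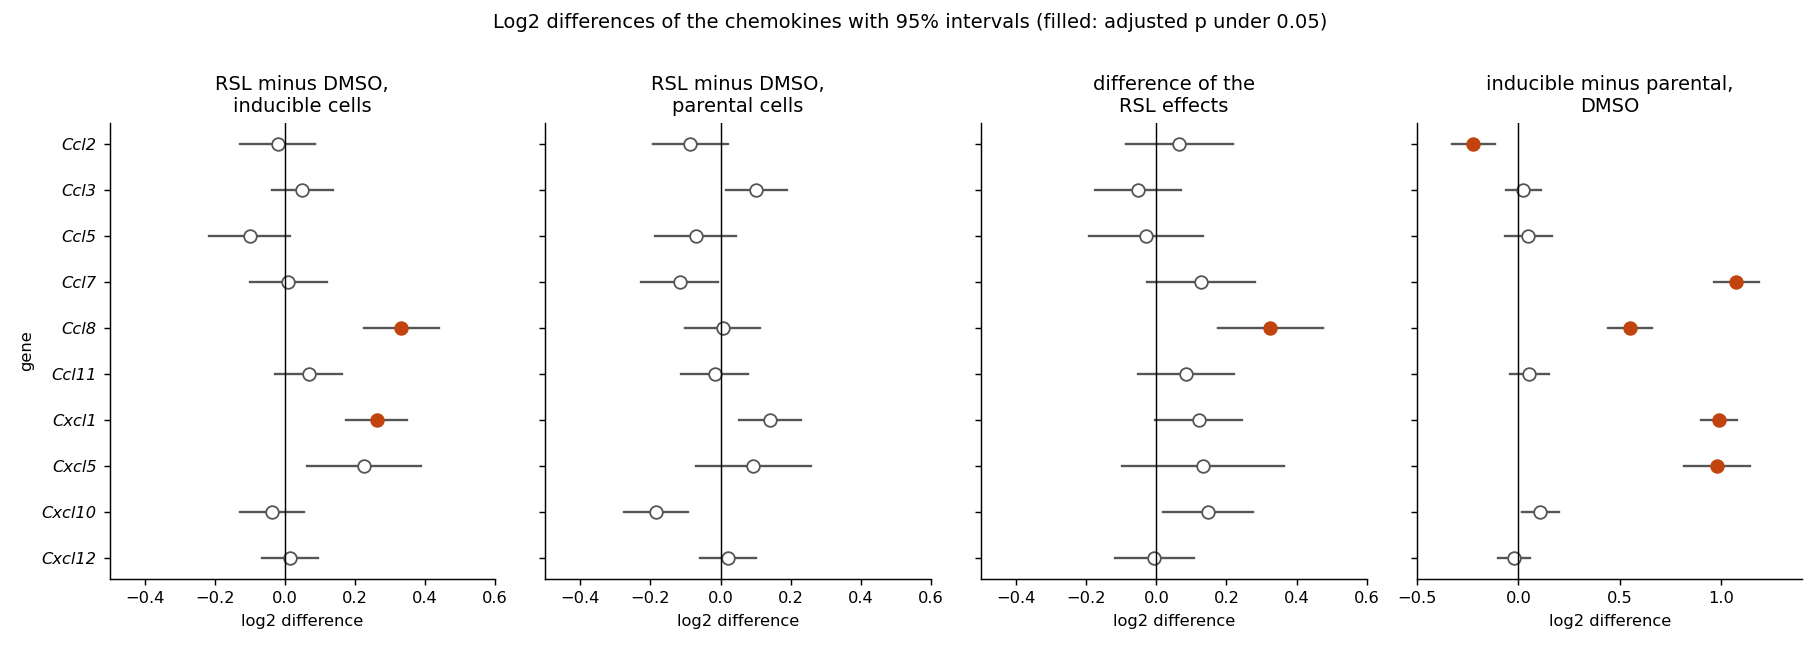
Log2 differences of the 10 chemokines in 4 comparisons, with 95% intervals from limma's standard errors. Filled points passed at an adjusted p under 0.05. The last panel has a wider axis than the others, since Ccl7, Cxcl1 and Cxcl5 differ there by 0.98 to 1.07.

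The larger differences of these chemokines were between the cell lines. On the arrays labelled DMSO, which in the clone gave the highest Ier2 readings of the 4 groups, Ccl7, Cxcl1, Cxcl5 and Ccl8 were higher in the inducible clone than in parental cells and Ccl2 was lower. Here 29.7% of all probe sets were called, against 5 of 10 members. The median of the members was 0.08, beside -0.01 for all probe sets, with a range of -0.22 to 1.07.

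Ccl7 read 9.71, 9.64 and 9.85 in the clone and 8.69, 8.68 and 8.61 in parental cells under DMSO. The difference was 1.07 (standard error 0.05, 2.11-fold, limma adjusted p = 1.27e-10), and the lowest array of the clone was far above the highest parental one.

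Cxcl1 read 8.92, 8.92 and 8.88 in the clone and 7.90, 7.97 and 7.89 in parental cells, a difference of 0.99 (standard error 0.04, 1.98-fold, limma adjusted p = 2.03e-11). Cxcl5 differed by 0.98 (standard error 0.08, 1.97-fold, limma adjusted p = 6.44e-08), from 8.15 ± 0.06 in parental cells to 9.13 ± 0.13 in the clone (mean ± SD, n = 3). Both neutrophil attractants were thus about equally far apart between the lines on the log2 scale, and neither pair of groups overlapped.

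Ccl8 rose from 6.65 ± 0.11 in parental cells to 7.20 ± 0.04 in the clone (mean ± SD, n = 3), a difference of 0.55 (standard error 0.05, 1.46-fold, limma adjusted p = 3.34e-07). Ccl2 moved the other way, reading 11.55, 11.57 and 11.53 in parental cells and 11.28, 11.32 and 11.38 in the clone. It was lower by a log2 difference of -0.22 (standard error 0.05, limma adjusted p = 0.00272). Ccl2 and Ccl7, which both attract monocytes through Ccr2, thus differed between the lines in opposite directions.

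Cxcl10, at 0.11 with an interval of 0.02 to 0.20, did not pass (limma adjusted p = 0.0718), although its arrays did not overlap. In all, 6 members had arrays that did not overlap between the lines under DMSO, 5 higher in the clone and 1 lower, against 40.2% of all probe sets. Ccl3, Ccl5, Ccl11 and Cxcl12 differed by 0.02, 0.05, 0.05 and -0.02, and their arrays overlapped.

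Under RSL the same comparison of the lines called 7 of 10 members, against 34.2% of all probe sets. Ccl7 differed by 1.20, Cxcl5 by 1.11, Cxcl1 by 1.11 and Ccl8 by 0.88, all higher in the clone. Cxcl10 was higher by 0.26 (standard error 0.04, limma adjusted p = 0.000181), and Ccl11, near the floor in both groups, by 0.14 (standard error 0.05, limma adjusted p = 0.0273). Ccl2 was lower, at -0.16 (standard error 0.05, limma adjusted p = 0.0248). The calls of Ccl2 and Ccl11 lay near the threshold. With the adjustment used here, the methods' one-way analysis called 5 members and lost both (adjusted p = 0.0868 and 0.0769). At an unadjusted p under 0.05 that analysis had 7 of the 10 members and 6650 of all 16475 probe sets. Without inducible RSL replicate 1, inducible RSL replicate 3 or parental RSL replicate 3, the difference of Ccl2 was -0.13, -0.14 and -0.09, with an adjusted p of 0.114, 0.0643 and 0.145. Ccl11 kept its difference, 0.13 to 0.15 over all 12 arrays left out in turn, but its adjusted p was 0.0758, 0.0579, 0.0849 and 0.0614 without inducible RSL replicate 1 or 2 or parental RSL replicate 1 or 3.

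The order of the 4 group means showed where neighbouring levels could be told apart. For Ccl8 it ran from inducible RSL (7.53) through inducible DMSO (7.20) to parental RSL (6.66) and parental DMSO (6.65), and the first 2 steps passed the test while the last did not. For Cxcl1 it ran from inducible RSL (9.17) through inducible DMSO (8.91) to parental RSL (8.06) and parental DMSO (7.92), again with the first 2 steps passing. Cxcl5 had the same order of means (9.35, 9.13, 8.24 and 8.15), and the step between the lines was the 1 that passed. For Ccl7 both inducible means, 9.75 and 9.73, stood above parental DMSO (8.66) and parental RSL (8.54), and no step within a line passed.

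For Ccl2 the order was reversed, with parental DMSO (11.55) and parental RSL (11.46) above inducible DMSO (11.33) and inducible RSL (11.31), and no neighbouring pair passed. The step between parental RSL and inducible DMSO came closest, with a limma adjusted p of 0.0503. Cxcl10 ran from inducible DMSO (7.15), inducible RSL (7.11) and parental DMSO (7.04) to parental RSL (6.86), with no neighbouring pair passing. No neighbouring pair passed for Ccl3, Ccl5, Ccl11 or Cxcl12. The spread between arrays of a group, as a pooled SD over the 4 groups, was 0.04 for Cxcl12, 0.05 for Cxcl1, 0.07 for Ccl8 and 0.13 for Cxcl5, the member with the widest spread.

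The calls of Ccl8 and Cxcl1 within the inducible cells held in each of 20 other settings, 12 of which left out 1 array. Ccl8 stayed between 0.31 and 0.38, with adjusted p of 0.000414 to 0.0377, and Cxcl1 between 0.24 and 0.29, with adjusted p of 0.000659 to 0.0296.

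**Figure D4:**
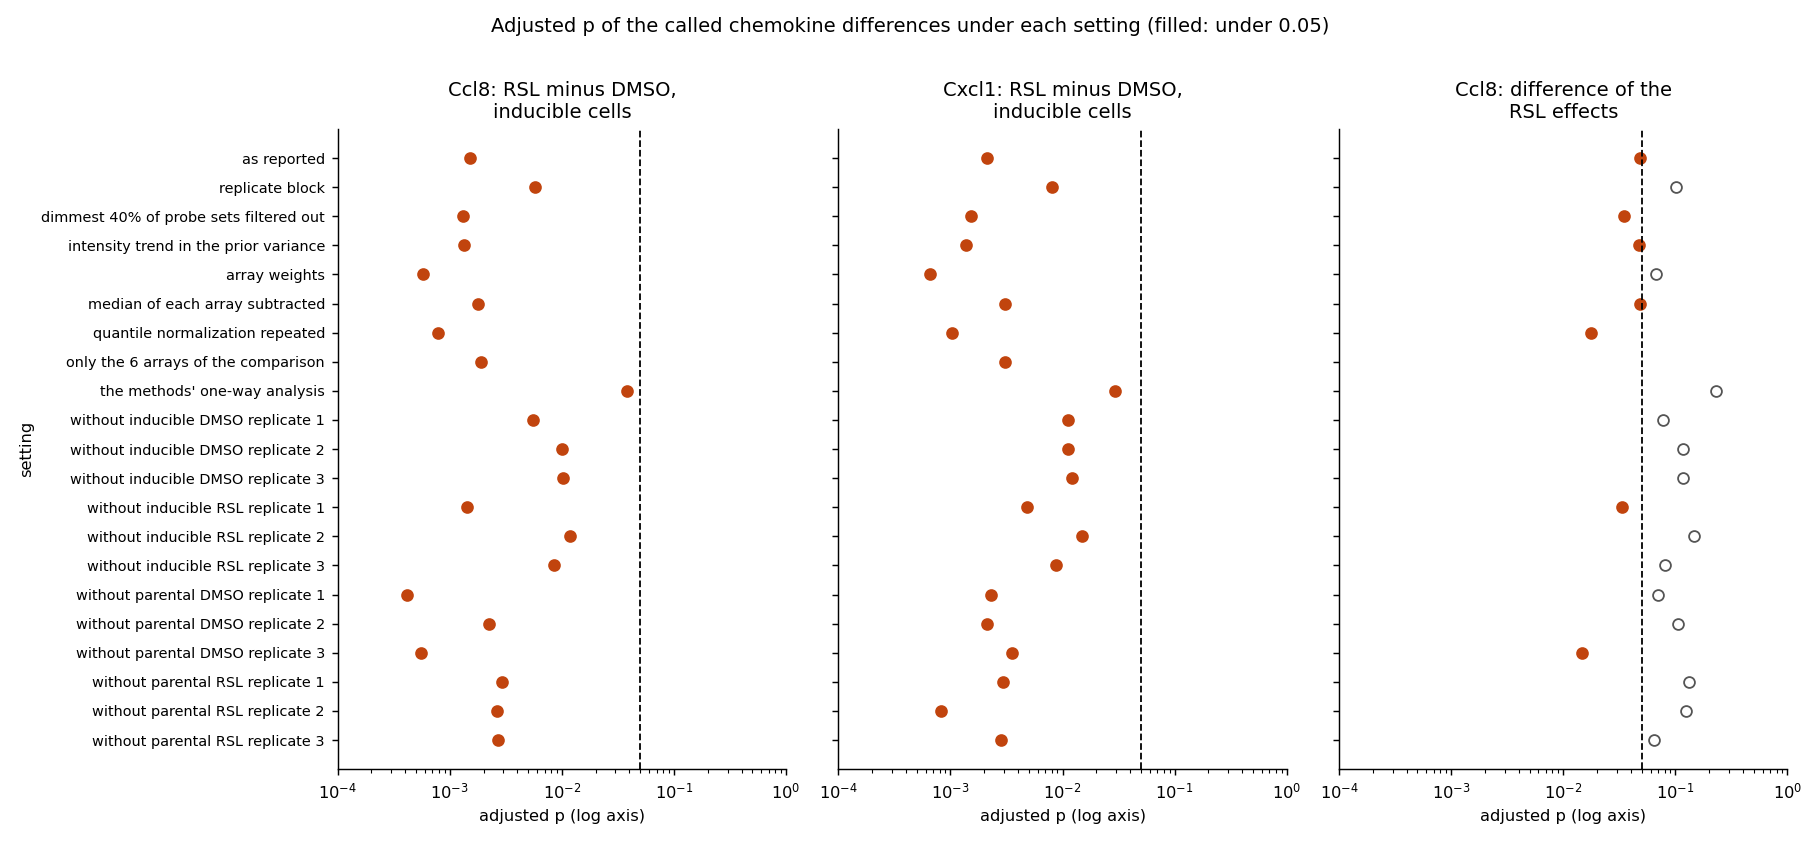
Adjusted p, on a log axis, of 3 differences under each setting, 1 setting per line. Filled points are under 0.05, the dashed line. The RSL effects of Ccl8 and Cxcl1 in inducible cells stay left of the line in every setting, and the difference of the Ccl8 effects between the lines crosses it in 13 of 19 other settings.

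The probe sets most like Ccl8 and Cxcl1 over the 12 arrays were sought after subtracting the mean of each cell line, among the named probe sets brighter than the overall median (7947 for Ccl8 and 7946 for Cxcl1). For Ccl8 they were Ak1 (Pearson r = 0.93), an adenylate kinase that was lower in the clone under DMSO, at -0.35, where Ccl8 was higher, Lox (0.90), the lysyl oxidase that cross-links collagen, and Lgals3bp (0.90), a secreted galectin ligand. For Cxcl1 they were Slpi (0.96), a secreted protease inhibitor of leukocyte elastase, Mgst1 (0.95), a microsomal glutathione transferase, and Arhgap24 (0.95). These are descriptions over arrays that share 1 treatment contrast per line.

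The other genes of the chemokine system moved little with RSL. Of 28 other chemokines 23 were measured, 8 of them below the first quartile on all arrays. Of these, 1 gene, Ccl9, an attractant of myeloid cells, rose in inducible cells by 0.22 (standard error 0.03, limma adjusted p = 0.000833), and the median of the list was 0.02. Ccl9 also passed for the difference of the effects, at 0.22 (limma adjusted p = 0.0272), as Ccl8 did, and none passed in parental cells. Between the lines under DMSO, Ccl9 was higher in the clone by 0.45, the platelet chemokine Ppbp by 0.57 and the thymic chemokine Ccl25 by 0.17, while the membrane-bound Cx3cl1 was lower, at -0.14. Of 21 measured chemokine receptors, 11 were below the first quartile on all arrays and 0 were called for RSL by limma in either line, with 0 and 1 at an unadjusted p under 0.05. Between the lines, the scavenging receptor Ackr3 of Cxcl12 was higher in the clone by 0.16, and Cxcr2, the receptor of Cxcl1 and Cxcl5, by 0.18.

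Upstream of the chemokine genes, none of 15 inducing receptors and adaptors and none of 13 NF-kB subunits and inhibitors was called by limma for RSL in either line or for the difference. In inducible cells 6 receptors and adaptors and 2 of the NF-kB list reached an unadjusted p under 0.05. Of all 16475 probe sets 2031 did. In parental cells the counts were 2, 3 and 1599. Between the lines under DMSO, 7 of the receptors and adaptors were higher in the clone and 2 lower, against 15.2% and 14.5% of all probe sets. Among the higher were Il1r1 (0.51) and Il1rap (0.40), the chains of the interleukin-1 receptor, Osmr (0.33), the oncostatin M receptor, and Il17ra (0.30), a chain of the interleukin-17 receptor. Of the NF-kB list 4 were higher, among them the nuclear co-regulator Nfkbiz (0.39), the kinase subunit Ikbkg (0.28) and the inhibitor Tnfaip3 (0.22), and 3 lower, among them the subunit Relb (-0.20).

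Of 12 AP-1 and C/EBP factors, 3 fell with RSL in inducible cells and none rose: Jun by a log2 difference of -0.36 (limma adjusted p = 4.05e-05), Fosl1 by -0.27 and Junb by -0.20. Fosl1 and Jun also passed for the difference of the effects, at -0.33 and -0.27. Within the inducible line, Ccl8 and Cxcl1 were thus higher on the arrays on which these 3 transcripts of AP-1 subunits were lower. Under DMSO, Fosl1 and Junb were higher in the clone than in parental cells, as Ccl8 and Cxcl1 were. Between the lines 5 of the list were higher in the clone, among them Fos (0.45), Cebpb (0.42), Fosl2 (0.26) and Fosl1 (0.23), and none lower. Of all probe sets, 15.2% were higher in that comparison and 14.5% lower.

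Of 11 interferon pathway genes, the GTPase Gbp2 rose in inducible cells by 0.26 and the receptor chain Ifngr2 fell, at -0.22, and Gbp2 passed for the difference, at 0.36. Between the lines 2 were higher in the clone, among them Ifit1 (0.38), and 3 lower, namely Irf1 (-0.21), Ifngr1 (-0.25) and Gbp2 (-0.18). Of 6 regulators of mRNA decay, Zfp36, which destabilizes AU-rich transcripts, fell in inducible cells, at -0.21 (limma adjusted p = 0.0109), and passed for the difference, at -0.28 (limma adjusted p = 0.0445). Between the lines 4 of these regulators were higher in the clone, Zfp36 by 0.26 and Zfp36l1 by 0.22 among them, and 1 lower, Khsrp (-0.15). The shares of all probe sets beside both lists were 15.2% higher in the clone and 14.5% lower.

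Of 13 other secreted cytokines and growth factors, Il6 rose with RSL in inducible cells by 0.33 (standard error 0.05, limma adjusted p = 0.000928) and passed for the difference, at 0.33. Its parental means, 5.86 under DMSO and 5.86 under RSL, were below the first quartile of every array. Signal over background therefore limits what the difference of the effects and the comparison of the lines show for Il6. Between the lines under DMSO 5 were higher in the clone, among them Il6 (0.87), the hepatocyte growth factor gene Hgf (0.83) and Il11 (0.50), and 1 lower, Csf1 (-0.28). Among all probe sets 15.2% were higher there and 14.5% lower. Of the 24 measured genes listed as silent in fibroblasts, 0 were called for RSL by limma in either line. At an unadjusted p under 0.05, 0 and 2 passed in inducible and parental cells. Between the lines 2 of the 24 were lower in the clone, the elastase gene Cela1 (-0.28) and the cardiac troponin gene Tnnt2 (-0.24).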

How the data were processed

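RNA of NIH 3T3 cells was measured on 12 Affymetrix Mm430_2.0 arrays, 3 in each of 4 groups. The deposited table holds log2 values of all of them. The authors had grouped probes by Entrez gene with a Custom CDF, corrected the background by RMA and normalized by quantiles. That the logarithm is to base 2 was read from the range of values, and the summary of probes stays unstated. The methods name a RNAPure kit and the labels Trizol for the extraction. No array was left out.

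Of 16539 rows, 64 hybridization controls were removed and 16475 probe sets tested without a filter, of which 15780 have a gene symbol in the annotation given. Groups were taken from the labels. Linear models with 4 group means were fitted to all 12 arrays in limma 3.58.1 (R 4.3.3), with moderated variances and Benjamini-Hochberg adjustment over all probe sets, and calls were made at an adjusted p under 0.05. Standard errors and 95% intervals are limma's. RSL was compared with DMSO in each line, these effects with each other, and the lines with each other under DMSO. The comparison of the lines under RSL was added after the values were seen. Scripts were tested on simulated data. Promoter windows came from RefSeq.

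The members and the gene lists were chosen with earlier results of these data known. Of each other list, up to 4 called genes per comparison with the smallest p are named, and for each member called for RSL in inducible cells the 3 probe sets most like it. As alternatives, the dimmest 40% of probe sets were filtered out, the prior variance followed intensity, arrays were weighted, array medians were subtracted, quantile normalization was repeated, a replicate block was fitted, comparisons were run on their own 6 arrays, the one-way analysis of the methods was run on ordinary variances, and single arrays were left out in turn. The methods took a nominal p as their threshold, whereas the one-way analysis here was adjusted like the other settings. For the floor, the lowest 40% of the array and the upper quartile (75th percentile) of genes silent in fibroblasts were also used. Arrays give no count of molecules, so their number limits the precision. Separate cultures are not stated for the biological replicates of the labels, and p-values therefore rest on a spread that may be technical.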

Additional observations from a re-analysis of the deposited data

Results flagged for a closer look

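The RSL effect on Ccl8 differed between the lines when the difference itself was tested, by 0.33 on the log2 scale (inducible minus parental, standard error 0.07, limma adjusted p = 0.0485). Each of the 3 inducible RSL arrays was above each inducible DMSO array, while the parental groups overlapped, at percentiles of 37.1 to 43.0 on the array. Over the 19 other settings of this test the adjusted p ran from 0.0146 to 0.233.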

How the results depend on the processing

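In inducible cells Ccl8 and Cxcl1 were the members called for RSL in every setting run, and in parental cells no member was called in any. Leaving out 1 array, the number of all probe sets called ran from 204 to 457, 1 to 12, 56 to 144 (RSL in inducible cells, in parental cells and their difference), 4132 to 4980 and 4707 to 5924 (lines under DMSO and under RSL), and the number of members called from 0 to 1 for the difference and 5 to 7 for the lines under RSL. With array weights 736 probe sets were called for RSL in inducible cells, 106 in parental cells and 375 for the difference. For parental cells the count was 8 with the filter on dim probe sets, 10 with the intensity trend, 8 with a repeated quantile normalization, 2 from the 6 arrays alone and 0 in the methods' one-way analysis, which called 31 for the difference (1415 and 1473 at an unadjusted p under 0.05). Ccl8, the 1 member called for the difference, was lost with array weights (0 members, adjusted p = 0.0667) and in that analysis (adjusted p = 0.233). At an unadjusted p under 0.05, 1 member passed for the difference in that analysis.

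The replicate numbers share only a number: deviations of same-numbered arrays of a line correlated at -0.27 to 0.21, 2 of 6 pairs were over 0.1, and 5 of 12 arrays correlated best with their own number. With the replicate block, 330, 4, 76, 4604 and 5314 probe sets were called in the order above, and 2, 0, 0, 5 and 7 members, with Ccl8 at an adjusted p of 0.101 for the difference.

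Sign changes were found for members that were not called. With array weights Cxcl12 was at -0.0028 in inducible cells, Ccl11 at 0.056 in parental cells, and Ccl5 at 0.062 for the difference and -0.032 between the lines under DMSO. Ccl8 in parental cells was at -0.0022 with array medians subtracted and -0.018 with a repeated quantile normalization, which put Cxcl12 at -0.0020 there and 0.0098 for the difference. Leaving out 1 array gave -0.044 to 0.068 for Ccl7, -0.063 to 0.0099 for Ccl2 and -0.0010 to 0.033 for Cxcl12 in inducible cells. In parental cells it gave -0.085 to 0.028 for Ccl11, -0.051 to 0.061 for Ccl8 and -0.011 to 0.055 for Cxcl12. For the difference it gave -0.097 to 0.033 for Ccl5 and -0.040 to 0.027 for Cxcl12. Between the lines it gave -0.015 to 0.11 for Ccl5 and -0.016 to 0.097 for Ccl11 under DMSO, and -0.061 to 0.0011 for Ccl3, -0.0034 to 0.034 for Ccl5 and -0.061 to 0.0052 for Cxcl12 under RSL.

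Taking the lowest 40% of an array as the floor added Cxcl12 in each group and Ccl5 in all but inducible DMSO cells. So 3 members were near it in inducible DMSO cells and 4 in each other group. Against genes silent in fibroblasts, 4 were near it in parental RSL cells. The filter on dim probe sets removed Ccl3, Ccl5, Ccl11 and Cxcl12. It brought Cxcl10 to an adjusted p of 0.0473 between the lines under DMSO, where 4825 of the 9885 probe sets left were called. Array weights called 7 members in that comparison, adding Cxcl10 (adjusted p = 0.0113) and Ccl11 (0.14, adjusted p = 0.0114). They also raised the number of all probe sets called from 4885 to 6476. The causes were not tested. Ccl3, Ccl11 and Cxcl12 read below the upper quartile of silent genes on all 12 arrays, and signal over background limits what their differences show.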
